A study of Glycine max with 4 samples.

Results

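The subject is a set of 588 transcription start regions of soybean that were strong in root and kept some use in shoot, out of 23330 start regions on the 20 sequences of the assembly. A region here is 1 or more deposited tag clusters of root or shoot on the same sequence and strand, joined where they lay at most 100 bp apart. The regions were selected on the pooled values of the 2 tissues: a Root sum of at least 20 TPM, a Shoot sum above 0 and a Root/Shoot ratio of at least 10. The difference between root and shoot at these regions is therefore what defined them, and it is given below as a description with no test. Of the 4525 regions with a Root sum of 20 TPM or more, the 588 made up 13.0%.

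The data are nanoCAGE libraries of roots and shoots of Glycine max, genotype Williams 82, with 2 libraries per tissue. All plants were 2 weeks old. They had grown under white light at 300 µmol/m2/s, in days of 12 h light and 12 h dark. The labels give no treatment, number the libraries 1 and 2 within a tissue and do not say that they came from separate plants, so the spread between them may be technical. "Shoot" is a whole organ system of many cell types, as is "root", and in such bulk tissue fewer cells of a type and less RNA per cell cannot be told apart. Marker genes of the tissues could not be checked, because gene names and the genome sequence were not used here.

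NanoCAGE is designed to read the 5′ ends of capped RNAs, so that a tag is taken to mark the base where RNA polymerase II began a transcript. Whether some tags came from other RNA ends was not tested. A promoter often directs initiation to a patch of neighbouring bases: some promoters send most transcripts to a single base, others spread them over a wide stretch. Roots take up water and minerals, store and exchange compounds with soil microbes and grow from a tip meristem, while shoots hold the photosynthetic leaves, and many plant genes are transcribed mainly in 1 of these organs.

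The set carried much of the root signal and little of the shoot signal. The 588 regions held 12.7% of all root TPM and 0.521% of all shoot TPM. Their Root sums ran from 20.04 to 9762 TPM with a median of 50.9 TPM, and 162 of them reached 100 TPM. Their Shoot sums ran from 0.329 TPM, the value of a single tag, to 166 TPM with a median of 2.28 TPM. The median ratio was 22.7, with 246 regions below 20 and 22 at 100 or more. The shoot side often rested on very few tags: the median was 7 shoot tags, and 145 regions had 1 to 3. The lower limit of the exact 95% counting interval of the ratio was 10 or more at 338 of the 588. The interval rests on the same tags that the rule cut at a ratio of 10, so this count describes the chosen regions and is no test. The interval covers counting error only, since tags copied by PCR with no molecular identifier can count 1 molecule many times. The authors' lists had a tag cluster of both tissues at 489 of the regions and of root alone at 99.

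**Figure D1:**
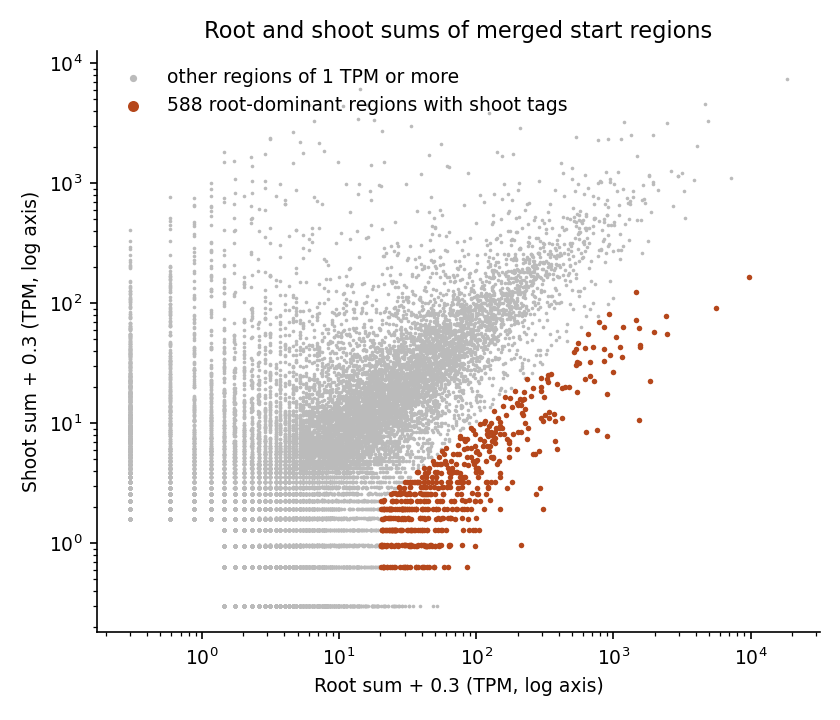
Each point is a merged start region of 1 TPM or more in either tissue, with its Root sum on the horizontal and its Shoot sum on the vertical log axis (0.3 TPM added). The 588 regions in colour sit below and to the right of the main band, from 20.04 to 9762 TPM in root. The straight edges of the coloured area are the limits of the rule. The lowest horizontal row holds regions without a shoot tag, and the rows above it are small whole numbers of shoot tags.

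A few regions carried a large part of the set. The 10 strongest held 30.8% of its root TPM, and the first alone held 9.95%. That first region lay on the plus strand of sequence 9, from 12733167 to 12733906, and summed to 9762 TPM in root and 166 TPM in shoot, which is 58.9-fold (54.0 to 64.4 by counting error). In counts scaled to a common library size (scaled CPM), root replicates 1 and 2 had 19624 and 16513 and shoot replicates 1 and 2 had 676 and 71.02. The root libraries lay close together, and the shoot libraries lay far apart, with replicate 1 the higher.

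The second, from 11386948 to 11387081 on the plus strand of sequence 17, had 5584 TPM in root and 90.1 TPM in shoot, but the counts per library do not cover it. The third was a compact region from 5291798 to 5291820 on the plus strand of sequence 5, with 4929 and 4137 scaled CPM in the root libraries and 233 and 14.2 in the shoot libraries. Again shoot replicate 1 held most of the residual signal, and 92.4% of the root tags began at 1 base, 5291814. The region from 41945335 to 41945436 on sequence 11, plus strand, had 4232 and 4720.2 scaled CPM in root and 309 and 44.6 in shoot. The minus-strand region of sequence 11 at 15050667 to 15050714 had 2966 and 4525 in root and 227 and 34.5 in shoot. At both, the lower root library was over 10-fold above the higher shoot library.

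Root replicates themselves parted at some of the strongest regions. From 54077131 to 54077236 on the minus strand of sequence 4, root replicate 1 had 5286 scaled CPM and root replicate 2 had 1346, against 80.5 and 22.3 in shoot. From 5723445 to 5723475 on the plus strand of sequence 2 the order was the opposite, with 1758 in root replicate 1 and 4197 in root replicate 2, against 178 and 14.2 in shoot. The root mean of the sequence 4 region was 3316 ± 2786 (SD, n = 2) and that of the sequence 2 region 2977 ± 1724. The root level is thus known only loosely at both, and the spread may be technical. In neither case did the tissues overlap.

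The other 3 of the 10 were spread over 3 sequences. The minus-strand region of sequence 9 at 30037587 to 30037708 had 2295 and 3629 scaled CPM in the root libraries and 192 and 8.12 in the shoot libraries. The plus-strand region of sequence 11 at 35181921 to 35181999 had 3032 and 2653 in root and 191 and 112 in shoot, and was the only 1 of the 8 regions with counts whose shoot libraries lay within 2-fold of each other. The minus-strand region of sequence 13 at 34254041 to 34254151 had 1544 TPM in root and 10.3 TPM in shoot and is outside the counts per library. Its ratio of 149 (counting interval 106 to 218) was the highest among the regions with 10 or more shoot tags.

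**Figure D2:**
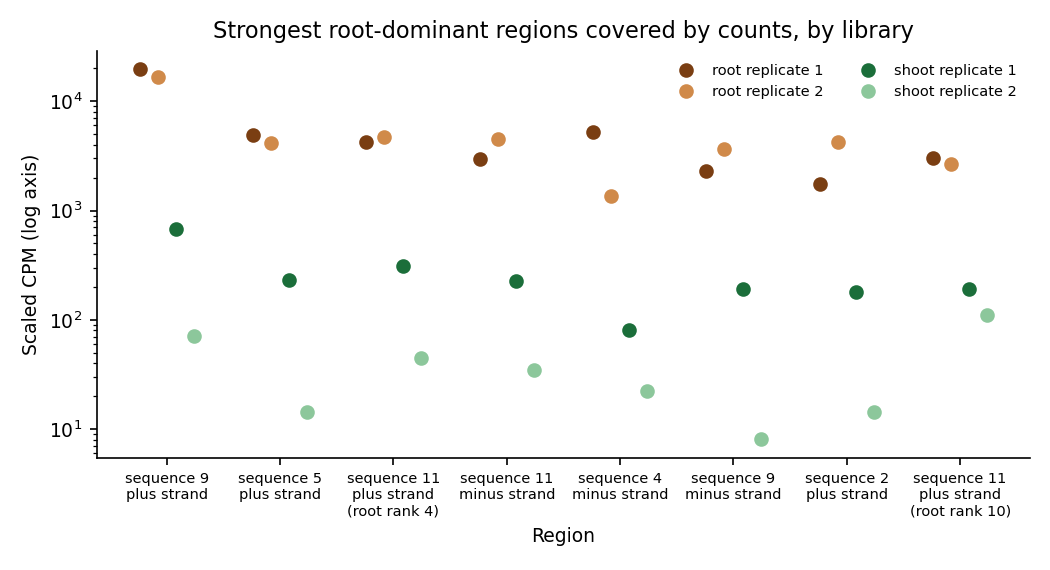
Scaled CPM on a log axis in each of the 4 libraries (1 point per library) for the 8 of the 10 strongest regions that the count table covers; no mean or error is drawn. Root points lie from 1346 to 19624 and shoot points from 8.12 to 676, and at every region shown shoot replicate 1 lies above shoot replicate 2.

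Other high ratios with 10 or more shoot tags behind them were 120 for the plus-strand region of sequence 14 at 3824812 to 3824834 (895 TPM in root, 7.47 TPM in shoot) and 88.4 for that of sequence 9 at 12880136 to 12880740. The latter had 2325 and 384 scaled CPM in the root libraries and 28.2 and 12.2 in the shoot libraries. It was also, after a weak plus-strand region of sequence 4 at 19652094 to 19652102 with 63 and 8 root tags, the region whose root libraries differed most; both were picked out for this after their values were seen.

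Regions at the edges of the rule show how fine its limits are. The 3 members closest to the ratio limit had ratios of 10.05, 10.09 and 10.1, on sequence 1 plus strand at 40421880, sequence 9 plus strand at 49390805 and sequence 6 minus strand at 12178626. The 3 regions just below it had ratios of 9.99, 9.97 and 9.96, and rested on 10, 11 and 7 shoot tags, so that a single shoot tag fewer would have brought each of them in. The 3 members with the lowest Root sums had 20.04, 20.05 and 20.05 TPM, and the 3 strongest regions left out by that limit had 19.8, 19.8 and 19.8 TPM.

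Counts per library covered 414 of the 588 regions, those on sequences 1 to 12 and on part of sequence 13. The 174 others were much alike in pooled values, with a median Root sum of 49.2 TPM and a median ratio of 22.2, against 51.1 TPM and 23.2 in the covered 414. All 414 had both root libraries above both shoot libraries; among all 3088 covered regions with a Root sum of 20 TPM or more this share was 53.4%, and since the rule used the same contrast nothing is read from the difference. Library by library the 10-fold limit was met less often. Root replicate 1 was at least 10-fold above shoot replicate 1 at 259 of the 414 and above shoot replicate 2 at 372, root replicate 2 reached it at 275 and 362, and 181 regions met it in all 4 pairs. After scaling with the trimmed mean of M values (TMM), 356 of the 414 still had a mean ratio of 10 or more, and the lowest mean ratio was 7.25. Scaled to total tags instead, 410 did.

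The split between the root libraries was not used by the rule and was wider in this set than in strong root regions at large. The median absolute log2 ratio of root replicate 1 to root replicate 2 was 0.66 in the 414 regions, against 0.31 in the 3088 covered regions with a Root sum of 20 TPM or more. A difference of over 2-fold between the root libraries was seen at 116 of the 414 (28.0%), 56 higher in replicate 1 and 60 higher in replicate 2, against 9.39% of the 3088. With 1 pair of libraries this has no test.

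Residual use in shoot came mostly from 1 library. Shoot replicate 1 held 6969 tags in the 414 regions, 0.773% of its 901261 tags in the covered sequences (95% Wilson interval 0.755 to 0.792). Shoot replicate 2 held 1848, or 0.282% of 655935 (0.269 to 0.295). Root replicates 1 and 2 had 13.4% and 13.1% of their covered tags there. Shoot replicate 2 had no tag at 143 of the 414 regions, and shoot replicate 1 had none at 5. A count of 0 in shoot replicate 2 allows up to 3 tags, or 6.09 scaled CPM, and at these 143 regions that would still be a median of 8.53% of the root level. These zeros thus do not show absence, and shoot replicate 1 had a median of 3 tags at the same regions.

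Expressed against the mean root level of the same region, shoot replicate 1 had a median of 7.72% (quartiles 4.82% and 11.2%) and shoot replicate 2 a median of 1.91% (quartiles 0% and 5.63%). In shoot replicate 1 only 6 of the 414 regions were below 1% of root, whereas 176 were in shoot replicate 2. The median in shoot replicate 1 was similar at every root level, with 7.75% in 213 regions below 100 scaled CPM in root, 7.68% in 134 regions from 100 to 300 and 8.03% in 67 regions above that. The same medians in shoot replicate 2 were 2.14%, 1.76% and 1.96%. The upper end of all these percentages is bounded by the rule, so the spread is a description of the regions it kept.

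Taken the other way round, the residual root signal of shoot-dominant regions had lower medians after TMM scaling, and they were closer between its libraries. The same rule with the tissues exchanged gave 622 regions, 423 of them covered by counts, where root replicate 1 had a median of 1.47% of the shoot level and root replicate 2 of 1.34%. They had 60 and 62 regions without a tag. Pooled over regions the levels were 1.19% and 0.978%. The pooled levels of shoot replicates 1 and 2 in the 414 covered root-dominant regions were 7.39% and 2.82%. At the 145 shoot-dominant regions with 10 or more root tags root replicate 1 was the higher at 64.1%, with a median share of 55.4%. No test compares the 2 sets, because each was cut on its own ratio, and the TMM scaling moves that cut in opposite directions. The TMM factors (1.13 and 1.16 in root, 0.899 and 0.852 in shoot) also raise the shoot percentages and lower the root ones. The medians of shoot replicate 2 and of the root libraries are close enough for their order to depend on these factors, so no order is read there.

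**Figure D3:**
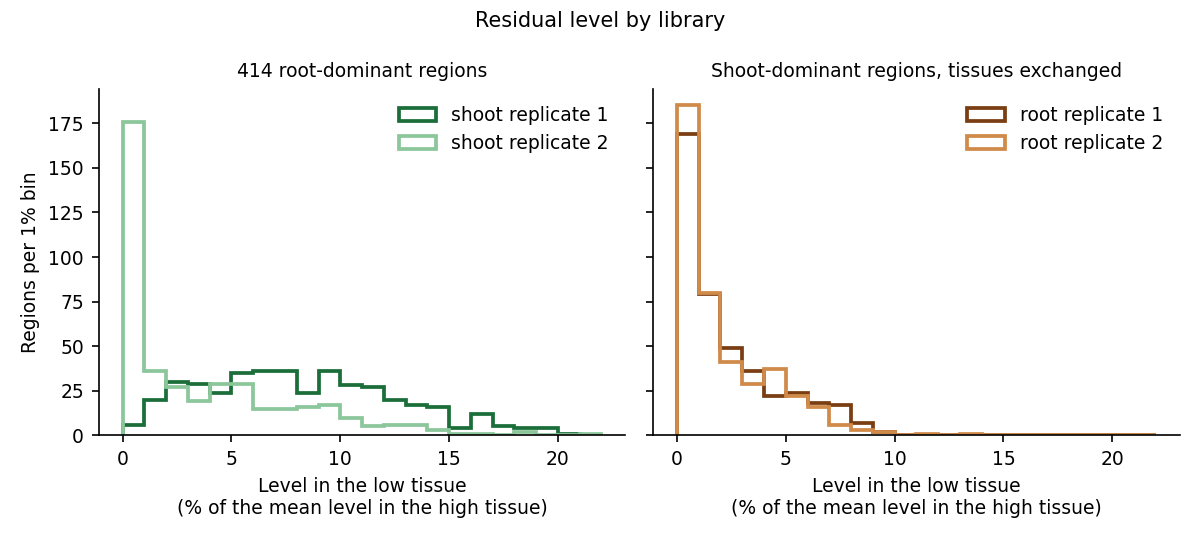
Number of regions per 1% bin of residual level, as a percent of the mean scaled CPM of the tissue in which the region is strong, for the 414 covered root-dominant regions (left, the 2 shoot libraries) and the 423 covered shoot-dominant regions (right, the 2 root libraries). Shoot replicate 1 forms a broad hump with a median of 7.72%, shoot replicate 2 peaks in the first bin with 176 regions below 1%, and the 2 root libraries on the right lie on top of each other with medians of 1.47% and 1.34%.

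How the residual shoot signal divided between the 2 shoot libraries was not used by the rule, which took their sum. Among the 158 covered regions with 10 or more shoot tags, shoot replicate 1 was the higher at 140 (88.6%), and its median share of the scaled signal was 70.4%. Among all 7721 covered regions with 10 or more shoot tags it was the higher at 50.3%, with a median share of 50.1%. The share differed widely from region to region, with quartiles of 55.6% and 90.05% in the set against 43.4% and 56.4% in all. Shoot tags were few in the set, with a median of 23 at its 216 regions with 10 or more, covered or not. Shares from so few tags carry counting error, and its part in the wider spread was not tested.

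At 1 end, all residual tags came from shoot replicate 1: 25 and 0 tags in the plus-strand region of sequence 2 at 46646348 to 46646352, and 21 and 0 in that of sequence 3 at 3344383 to 3344393. On sequence 10 the plus-strand region at 47477678 to 47478646 had 219 and 3 shoot tags and the minus-strand region at 2444748 to 2444756 had 142 and 3. The root libraries of these 4 had 471 and 227, 197 and 402, 2643 and 2444, and 850 and 1078 tags. The 4 were picked for the most uneven split between the shoot libraries, so nothing is read from the more even split in root. At the other end the shoot libraries were close to even, with 48 and 51 tags in the minus-strand region of sequence 8 at 5365215 to 5365226, and 11 and 10 in the plus-strand one of sequence 3 at 453164 to 453171. The sequence 8 region had 1168 and 819 scaled CPM in root and 67.8 and 103 in shoot, so some of these regions kept measurable use in both shoot libraries.

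Across the 84 covered regions with 20 or more shoot tags, the level in shoot replicate 1 followed the root levels and that in shoot replicate 2 did so less. Pearson's r of log2(CPM + 1) was 0.851 between shoot replicate 1 and root replicate 1 and 0.909 between shoot replicate 1 and root replicate 2, against 0.458 and 0.272 for shoot replicate 2. The root libraries correlated at 0.845 with each other and the shoot libraries at 0.402. These values describe regions that share their libraries and were kept for a Root/Shoot ratio of at least 10, which bounds the pooled shoot level by the root level. That bound and the floor of 20 shoot tags both act on the sum of the shoot libraries, which came mostly from shoot replicate 1. They thus act unequally on the 2 shoot libraries, and the difference between their r values can in part follow from the choice of regions. Whether root RNA or root tags had a part in the level of shoot replicate 1 was not tested.

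Regions over 2-fold higher in root replicate 2 had the lowest median in shoot replicate 2. Where root replicate 2 was over 2-fold above root replicate 1 (60 regions), shoot replicate 1 had a median of 8.02% of the root level and shoot replicate 2 of 0%. Where root replicate 1 was over 2-fold ahead (56 regions), these medians were 6.97% and 2.32%. At the 298 regions in between they were 7.92% and 2.43%, close to the group led by root replicate 1. A median of 0% is the floor of counting. Over all 143 regions without a tag in shoot replicate 2, the tags that a count of 0 allows were a median of 8.53% of the root level. The 0% therefore does not show a lower level. Over the 84 regions with 20 or more shoot tags, Pearson's r between the log2 ratio of the root libraries and that of the shoot libraries was -0.37, again as a description.

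Residual shoot tags began mostly at bases that also had root tags. Of 11818 shoot tags in the 588 regions, 240 (2.03%) fell on a base without a root tag, close to the 2.56% of shoot tags in evenly used regions. Among the 216 regions with 10 or more shoot tags, the most used base of root was also the most used of shoot, ties included, at 187 (86.6%), and it lay within 10 bp at 202. The median share of tags at the main root base was 56.8% in root and 57.3% in shoot. This was so in both shoot libraries: summed over the 414 covered regions, 55.0% of the tags of shoot replicate 1 and 55.4% of those of shoot replicate 2 fell on the main root base, against 55.5% and 56.8% in the root libraries. For comparison, 1892 regions of 20 TPM or more in both tissues and within 2-fold of each other had the same main base at 81.6%, with a median of 164 shoot tags instead of 23. In the shoot-dominant set the main base was the same at 151 of 207 regions with 10 or more root tags (72.9%). Ties among root bases were not all counted there, so that figure may be low.

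Single regions show the same. At the strongest region, on sequence 9 at 12733167, 45.1% of root tags and 47.5% of shoot tags began at 12733171. At the sequence 5 region the shares at 5291814 were 92.4% and 93.6%, and at the sequence 13 region at 34254041 they were 87.9% and 87.5% at base 34254149. Of the 10 strongest regions, each had the same main base in both tissues. Of the 4 regions of highest ratio with 10 or more shoot tags, 2 differed in main base. On sequence 14 at 3824812 the main bases lay 2 bp apart. At the broad region of sequence 9 at 12880136, the main root base held 3.53% of the root tags and the main shoot base lay 380 bp away.

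Position use within a region is not fixed by the sums that chose the regions, so it was tested. The test was edgeR's quasi-likelihood fit with diffSpliceDGE over every covered region with at least 2 positions of sufficient counts, whether in the set or not, with 1 Simes p per region and Benjamini-Hochberg adjustment over all 2289 regions. It called 57 of the 2289 (2.49%) at 0.05, and 0 of the 203 regions of the set that could be tested. At an unadjusted p below 0.05 it had 1 of the 203, against 247 of all 2289. DESeq2 called 0 of the 203 as well and 79 of the 2289, with 8 and 252 below 0.05 unadjusted. The F test of edgeR per region called 0 of the 203 and 115 of the 2289, with 8 and 398 below 0.05 unadjusted. The positions that passed the count filter did so mostly through root, and the 203 regions had a median of 14 shoot tags against 206 in the other 2086 regions tested. The share of shifts that the test would find at that depth was not measured, and the counts do not show that the set shifted less often than other regions. The count over all regions itself fell to 4 without shoot replicate 1 and to 5 without shoot replicate 2, with 0 members in both.

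The smallest p in the set was 0.0485 (edgeR, Benjamini-Hochberg adjusted p = 0.456), for a minus-strand region of sequence 11 at 1678053 to 1678107, with 971 and 979 root tags and 78 and 19 shoot tags. Its base 1678101 had a log2 relative use, shoot minus root, of -3.01. The next 3 had adjusted p of 0.517, 0.630 and 0.639 by the same edgeR test: they began at 42302369 (sequence 10, minus), 25522390 (sequence 13, plus) and 12178626 (sequence 6, minus).

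The regions were mostly narrow in root. The stretch that holds the root tags from 10% to 90% had a median width of 7 bp (quartiles 3 and 39.3 bp), against 28 bp in all 4525 regions with a Root sum of 20 TPM or more and 34 bp in the 1892 evenly used ones. A width of 10 bp or less was found at 346 of 588 (58.8%), against 34.7% and 27.2%. The main base held a median of 57.5% of the root tags, against 43.4% and 38.8%. Root levels were similar in the first 2 of these groups, with medians of 50.9 and 48.8 TPM. Shoot-dominant regions under the exchanged rule, measured in shoot, had a median width of 30 bp and 33.3% at 10 bp or less. The 26 strong root regions without a shoot tag had a median width of 6 bp. Shape was not used by the rule, but these are descriptions over regions and have no test.

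The sharpest of the 162 regions with 100 TPM or more in root sent nearly all transcripts to 1 base. The share was 97.9% for the plus-strand region of sequence 13 at 36667665 to 36667667. It was 93.8% for that of sequence 2 at 46646348 and 92.4% for the minus-strand region of sequence 11 at 30585264 to 30585266. In shoot the same bases held 100% of 19 tags, 84% of 25 tags and 93.8% of 65 tags.

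A smaller class was broad, in a share no higher than elsewhere. At 49 of the 588 regions (8.33%) the width was over 100 bp, against 11.2% of all strong root regions, 11.8% of evenly used ones and 9.65% of the shoot-dominant set. These 49 had a median of 50 root positions and 19.03% of the root tags at the main base. The 3 widest of the regions with 100 TPM or more measured 1026, 799 and 714 bp. They were the minus-strand region of sequence 2 at 7249831 to 7250928, the plus-strand region of sequence 10 at 47477678 already named for its shoot split, and the minus-strand region of sequence 20 at 45340648 to 45341467. They had root tags at 496, 446 and 400 positions. Broad and narrow regions had like ratios, with medians of 20.2 over 100 bp, 20.2 from 11 to 100 bp and 24.8 at 10 bp or less. The main base was shared with shoot at 9 of 20 broad regions with 10 or more shoot tags, against 125 of 133 narrow ones; where tags are spread thinly over many bases a top base is less well defined.

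**Figure D4:**
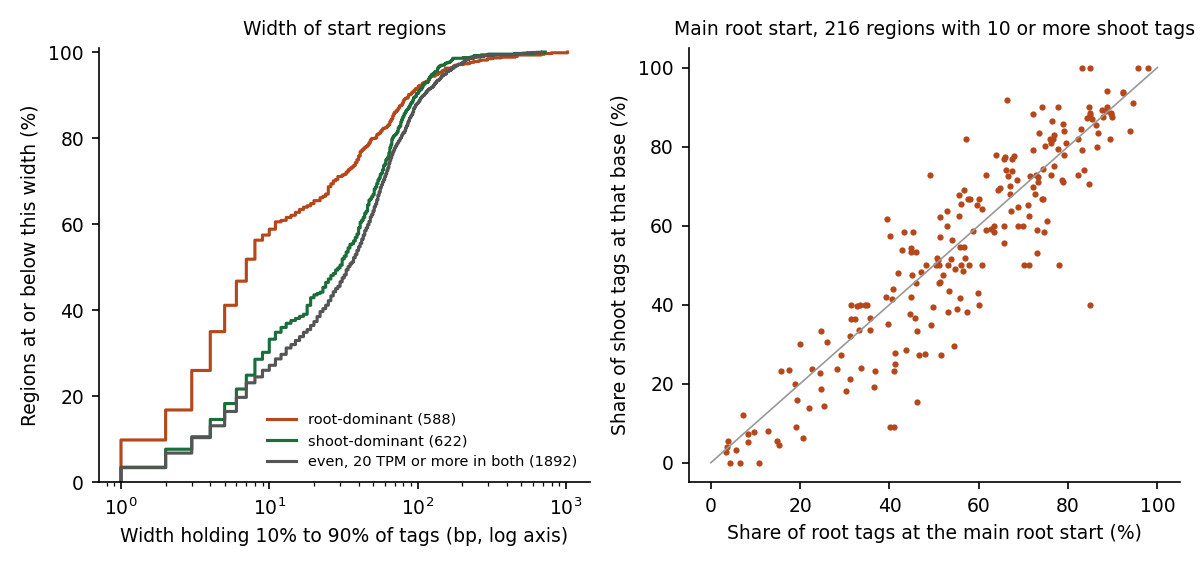
Left, cumulative share of regions by the width that holds 10% to 90% of their tags (log axis), for the 588 root-dominant regions (root tags), the 622 shoot-dominant regions (shoot tags) and 1892 evenly used regions (root tags). Right, share of root tags (horizontal) and of shoot tags (vertical) at the main root base of the 216 regions with 10 or more shoot tags, with the line of equal shares; the root-dominant curve rises first, with a median of 7 bp against 30 and 34 bp, and the points on the right lie around the line.

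The regions were found on every sequence and on both strands, 297 on plus and 291 on minus. As a share of regions with a Root sum of 20 TPM or more, they ran from 8.84% on sequence 8 (26 of 294) to 19.3% on sequence 3 (40 of 207). Sequence 9 had the most, with 42 of 244.

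Some lay close together, though no larger a share than in the shoot-dominant set. Of the 588, 107 (18.2%) were within 50 kb of another, against 113 of 622 (18.2%) in that set, 33.2% of the evenly used regions and 58.3% of all strong root regions, each within its own set and with sets of different size. The 107 formed 48 runs, of which 38 held 2 regions, 9 held 3 and 1 held 4; 35 of the runs were on a single strand. Among other strong root regions within 2 kb of a member, 34 of 39 (87.2%) were members too. From 2 to 50 kb the figure was 104 of 508 (20.5%), against 13.0% members among all strong root regions. Pairs are counted from each side, and no test was made over them. Regions within 2 kb on 1 strand can belong to the same gene.

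The run of 4 was on sequence 17, over 41.7 kb. It held the second strongest region of the set, with 5584 TPM in root, between plus-strand regions of 21.8 and 42.2 TPM and a minus-strand region of 57.2 TPM. Ratios in it were 22.3, 32.3, 62.0 and 24.96. The next 3 runs, taken by their short span, were on sequence 13 plus strand (3 regions over 0.827 kb), sequence 10 minus strand (over 1.72 kb) and sequence 8 minus strand (over 3.75 kb). In the runs of sequences 13 and 10 every region had more tags in root replicate 1. On sequence 13 the root tags of replicates 1 and 2 were 64 and 20, 80 and 24, and 50 and 29. On sequence 10 they were 134 and 90, 1181 and 466, and 876 and 311. The shoot tags of the sequence 10 run were 1 and 3, 44 and 16, and 27 and 6. On sequence 8 the root tags were near even, with 555 and 599, 185 and 165, and 247 and 215. The residual shoot tags of that run were 71 and 5, 13 and 1, and 22 and 1, nearly all from shoot replicate 1.

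A wider run, picked after its values were seen, held 3 strong narrow regions on the plus strand of sequence 2, at 5723445, 5739948 and 5748269, spread over 24.8 kb. Their Root sums were 1561, 1122 and 670 TPM and their Shoot sums 42.8, 43.1 and 24.5 TPM. All 3 were higher in root replicate 2, with 1738 and 3680, 1134 and 2760, and 664 and 1663 tags, and all 3 had their shoot tags mainly in replicate 1.

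**Figure D5:**
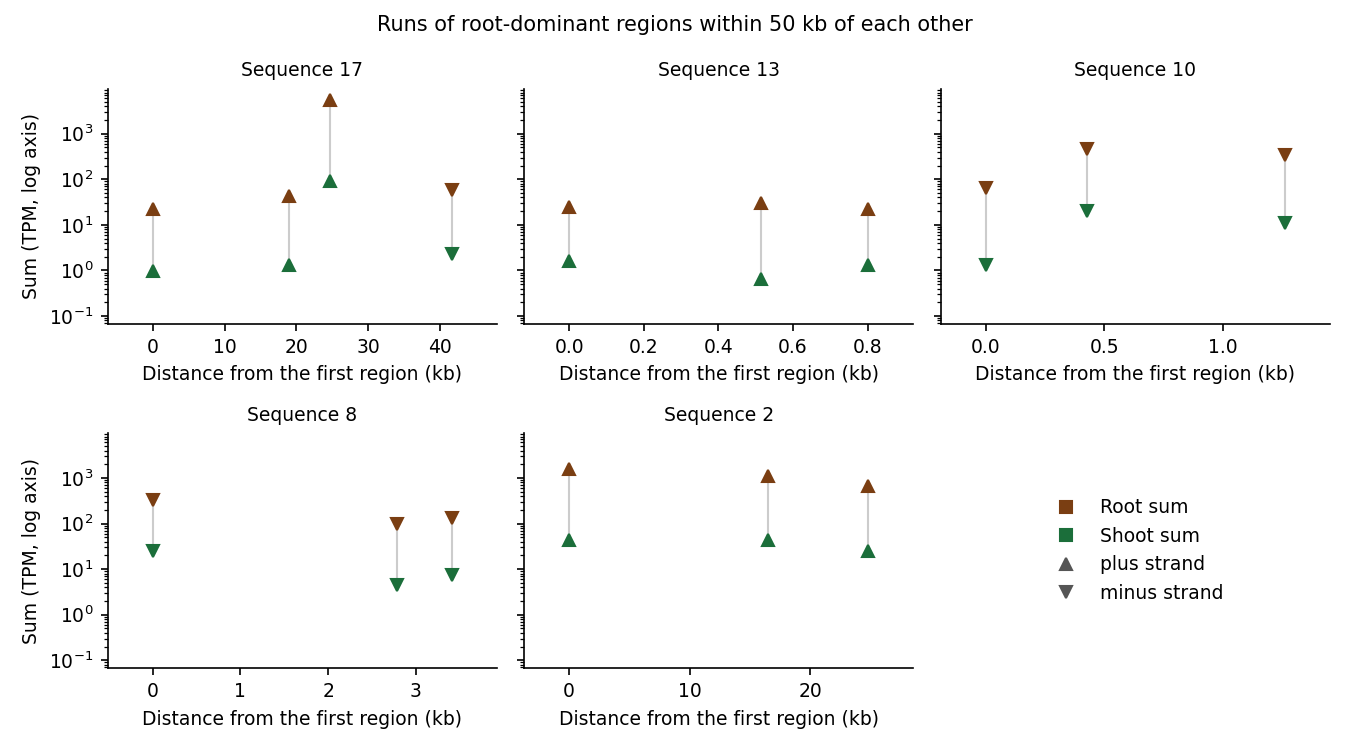
Root and Shoot sums in TPM (log axis) of the regions of 5 runs, against distance in kb from the first region of the run; triangles pointing up are on the plus strand and those pointing down on the minus strand. In each run every region has its Root sum at least 10-fold above its Shoot sum, from 21.8 to 5584 TPM on sequence 17 and from 670 to 1561 TPM on sequence 2.

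Neighbouring starts on the same strand mostly leaned to root too. Another start region lay within 2 kb on the same strand at 128 of the 588 (21.8%), against 18.9% of all regions with a Root sum of 20 TPM or more. Taking neighbours of 5 TPM or more in either tissue left 62 regions in 72 pairs, with the neighbour downstream in 41 and upstream in 31. In 60 pairs (83.3%) the neighbour was at least 10-fold higher in root, in 7 it was 2-fold to 10-fold higher, in 2 it lay within 2-fold and in 3 it was at least 2-fold higher in shoot. The pairs hold 64 distinct neighbours, of which 23 were members themselves and so 10-fold by the rule. Of the 41 that were not members, 29 (70.7%) were at least 10-fold higher in root. Among all 12506 regions of 5 TPM or more, 11.5% were at least 10-fold higher in root. On the other strand, 22 of the 588 had a region within 1 kb (3.74%, against 3.65%), and of 9 such neighbours of 5 TPM or more 8 were at least 10-fold higher in root, 4 of them as members.

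The neighbours least like their member were used mainly in shoot or in both tissues. On the minus strand of sequence 19, the member at 37188599 to 37188607 had 24.4 TPM in root and 1.95 in shoot, and 1273 bp away a single base at 37187326 had 1.43 TPM in root and 122 TPM in shoot. On the plus strand of sequence 6, the member at 10988420 had 20.7 and 1.95 TPM, and 309 bp upstream the region at 10988050 to 10988111 had 12.9 TPM in root and 57.6 TPM in shoot. In tags of root replicates 1 and 2 and shoot replicates 1 and 2, the member had 48, 24, 4 and 2 and its neighbour 29, 16, 116 and 62, so both root libraries had more tags at the member and both shoot libraries more at its neighbour. The minus-strand pair on sequence 6, at 3588171 to 3588321 and 220 bp upstream at 3588541 to 3588547, had 76.0 and 7.51 TPM against 3.73 and 12.0 TPM. On sequence 8, plus strand, the member at 1445219 to 1445224 had 23.5 and 0.658 TPM, and the region 176 bp upstream of it had 5.44 and 4.23 TPM. These pairs were taken as the 4 with the largest difference in log2 ratio between member and neighbour, with 0.3 TPM added.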

How the data were processed

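Transcription start sites were measured by nanoCAGE in 2 root and 2 shoot libraries, made from 1 µg of total RNA each, per the labels' protocols. The deposited table of counts holds, per the file headers, raw tags by start position for each library. It covered 479104 of 711688 positions (sequences 1 to 12 and part of 13, without 1 broken last line), with 1000476 and 874004 tags in root replicates 1 and 2 and 901261 and 655935 in shoot replicates 1 and 2. Over all positions the TPM values correspond to 2685956 root and 2291657 shoot tags. The deposited TPM values give 1 pooled value per tissue and position, per the file headers. On shared positions they were a power function of the summed tags with exponents of 1.001 in root and 0.9943 in shoot, 1 tag being worth 0.286 and 0.329 TPM, so that 100% came back as whole tags within 0.001. The deposited cluster lists give positions and TPM scores of pooled replicates. The sources used here do not give the aligner, the clustering software or the treatment of multi-mapping tags; copies of duplicated genes could share tags.

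Members and lists were chosen with earlier results of these data known. Clusters were merged and the rule applied in Python 3.11.15. Region counts were scaled with TMM factors (1.13, 1.16, 0.899 and 0.852) in edgeR 4.0.16. Position use was tested on filterByExpr-filtered positions, with tissue as the only term, after a test on simulated data. The simulation gave both tissues like levels and placed its shifts in regions with many tags. It therefore does not show what share of shifts would be found at the shoot depth of the members. DESeq2 1.42.0, other filters and scalings, left-out libraries and a replicate block were alternatives. Named regions were, by rule, those with the 10 highest Root sums, the 4 highest ratios with 10 or more shoot tags, those nearest the limits, the 4 extremes each of the shoot split, the 3 widest and sharpest, the 4 smallest p, the first 4 runs and the 4 most different neighbours; others are said to be picked later. Intervals and floors cover counting error only, and the intervals of the ratio take no account of the rule that chose the regions. Coordinates are those of the deposited files; no gene annotation or sequence of their assembly was used here.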

Additional observations from a re-analysis of the deposited data

How the results depend on the processing

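The number of regions stayed at 588 with clusters joined only where they overlapped or within 50 bp, and was 594 within 200 bp, 578 by shares of all tags, 874 at a ratio of 5, 342 at a ratio of 20, 842 at a Root sum of 10 TPM and 369 at 40 TPM. In TMM-scaled counts 481 covered regions met the rule, 356 of them members; leaving out 1 library gave 345 to 476, with 236 members without shoot replicate 1, where the 143 members at 0 in shoot replicate 2 drop by construction. Without shoot replicate 2, 271 members met it; 5 are at 0 in shoot replicate 1, which has the higher residual level. Regions with position use that differed between tissues numbered 57, and 115 with the F test, 22 with no filter beyond 1 tag, 37 with positions of 10 or more tags, 79 with DESeq2, and 4 to 32 with 1 library left out (4 without shoot replicate 1, 5 without shoot replicate 2, 30 and 32 without root replicates 1 and 2, where the lone library is assumed to vary like the pair); members among them were 0 in each case. With a replicate block the number was 57 again, with 0 members. Same-numbered libraries did not deviate together (r = -0.0515 over 7183 regions), and the labels do not pair them. The members tested numbered 203 in the main test and 406 with no filter beyond 1 tag. In the main test they had a median of 14 shoot tags, against 206 in the other regions tested. The repeated counts of 0 members therefore do not show that position use was unchanged in the set. The median share of shoot replicate 1 was 73.6% with 5 or more shoot tags, 68.4% with 20 or more and 71.5% scaled to total tags. The main base was the same at 91.1% with 20 or more shoot tags, within 5 bp at 92.1% and within 10 bp at 93.5%, and at 85.7% to 87.4% with 1 shoot library left out. The median width was 27 bp for the full region and 3 bp between 25% and 75% of root tags, which are other measures of width. Within 2 kb on the other strand 34 regions had a neighbour. Other alternatives moved a count by 1.5 times or less. Depth limits the shoot side: 145 of the 588 ratios rest on 1 to 3 shoot tags, and per-library values exist for 414 regions.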
